A study of Homo sapiens with 18 samples.

Results

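Genistein and baicalein were set against each other at the matched dose of 10 µM in LNCaP cells. LNCaP is a human prostate cancer line, derived from a lymph node metastasis, whose growth responds to androgen. The compounds are isomers: genistein, an isoflavone, and baicalein, a flavone, carry the phenyl ring at different positions of the core, and their hydroxyl groups are placed differently. The comparison holds 6 libraries, chosen by their labels, of the 18 in the series: 3 from cells with genistein at 10 µM for 24 h and 3 from cells with baicalein at 10 µM for 24 h. The same drugs at 20 µM for 24 h gave 3 libraries each, and 3 more came from untreated LNCaP cells. The labels call the last group untreated, whereas the treatment protocol describes a vehicle control in DMSO. The study's title concerns both drugs as radiosensitizers for a radioactive ligand of PSMA, the membrane antigen encoded by FOLH1.

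As background, genistein is known as an inhibitor of protein tyrosine kinases, a ligand of oestrogen receptor beta and a poison of topoisomerase II, and baicalein as an inhibitor of lipoxygenases. LNCaP cells grow in response to androgen, which induces the kallikreins KLK2 and KLK3 in them. Immediate early genes such as FOS and EGR1 encode transcription factors that cells switch on within minutes of many stimuli, among them growth factors, stress and rises in cyclic AMP.

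Total counts per library lay between 12138311 and 16475824 with genistein at 10 µM and between 10551965 and 11460509 with baicalein at 10 µM. All 12 markers of LNCaP identity were detected. They summed to between 4150 and 4820 CPM, counts scaled to library size, with genistein and between 4330 and 4630 CPM with baicalein. The 7 markers of PC-3, the other line of the series, summed to between 18.6 and 35.9 CPM with genistein and between 17.3 and 21.5 CPM with baicalein. The labels do not say that replicates were separate cultures, so the p-values and intervals cover the spread between libraries, which could be of technical origin. One library stood apart. Baicalein replicate 1 differed from the other baicalein libraries by a mean root mean square of 0.69 on the log2 scale, and from the genistein libraries by 0.53. The balance of GC-rich and GC-poor transcripts also varied between libraries. The log2 deviation of the 3227 genes highest in GC content, minus that of the 3229 genes lowest, was 0.11, 0.43 and 0.52 in genistein replicates 1, 2 and 3. It was 0.52, -0.30 and -0.45 in baicalein replicates 1, 2 and 3, and lay between -0.21 and 0.17 in untreated cells. At 20 µM it lay between -0.355 and 0.242 with genistein and between -0.764 and 0.407 with baicalein.

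**Figure D1:**
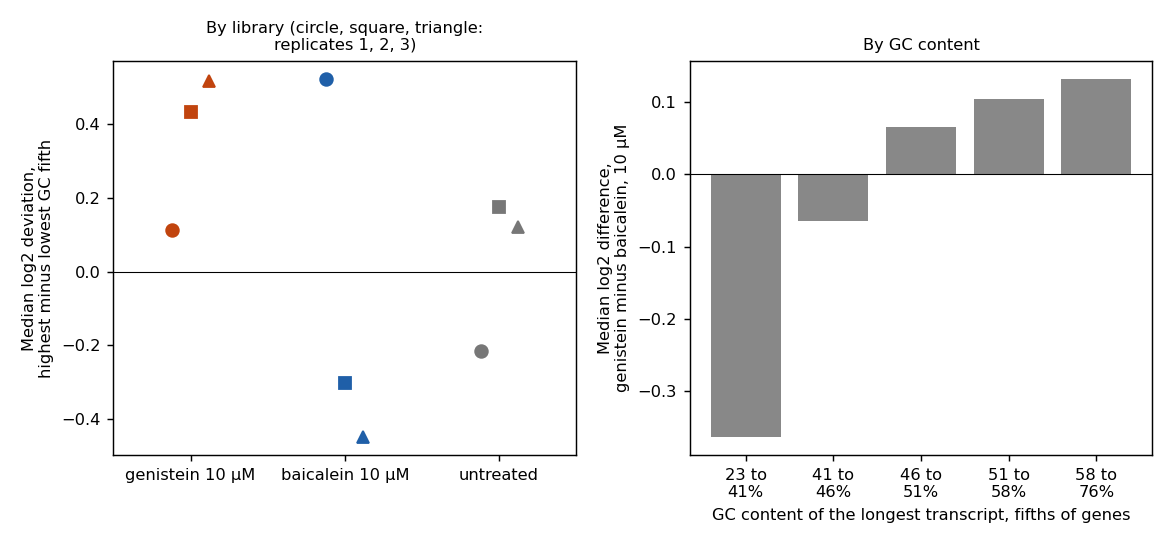
The left panel plots, for each library, the median log2 deviation from the mean of all LNCaP libraries in the 3227 genes highest in GC content minus that in the 3229 genes lowest, by group. Baicalein replicate 1, at 0.52, sits with the genistein libraries, and baicalein replicates 2 and 3 lie below 0. The right panel plots the median log2 difference, genistein minus baicalein at 10 µM, in 5 classes of GC content, from -0.36 in the lowest to 0.13 in the highest.

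Few differences between the isomers were resolved at 10 µM. Of 16985 genes tested, 1 gene, NDST1, was called different at a Benjamini-Hochberg adjusted p under 0.05 in edgeR's quasi-likelihood test, a share of 0.00589%. The median size of the log2 difference over all genes was 0.20, and 569 genes had an estimate over 2-fold. At 20 µM, 8278 genes were called between the same drugs, or 48.7%, of which 4316 were higher (25.4%) and 3962 lower (23.3%) with genistein. The difference between the drugs at 20 µM less that at 10 µM was itself called for 5575 genes, or 32.8%, with 17.3% positive and 15.5% negative. Without adjustment, 1312 genes had a p under 0.05 at 10 µM, or 7.72% of those tested, with 828 higher (4.87%) and 484 lower (2.85%) with genistein, and 606 higher and 692 lower once the trend on GC content and transcript length was removed. DESeq2 called 72 genes, 64 higher and 8 lower with genistein. The 3 genistein libraries did not overlap the 3 baicalein libraries for 2245 genes, or 13.2%.

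A gene that misses the threshold is not thereby shown to be equal, so the 95% interval of each difference was read against a margin. For 11565 genes, or 68.1%, the whole interval lay within 2-fold either way, and for 7021 genes, or 41.3%, it lay within 1.5-fold. At 20 µM the shares were 41.6% and 15.4%. How much could be shown depended on the level of the gene. Among genes under 1 CPM, 12.5% had an interval within 2-fold, and the interval reached a median of 1.08 on the log2 scale to either side. Between 20 and 100 CPM the share was 81.6%, and the reach was 0.32. No equality can therefore be read for most weakly transcribed genes.

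**Figure D2:**
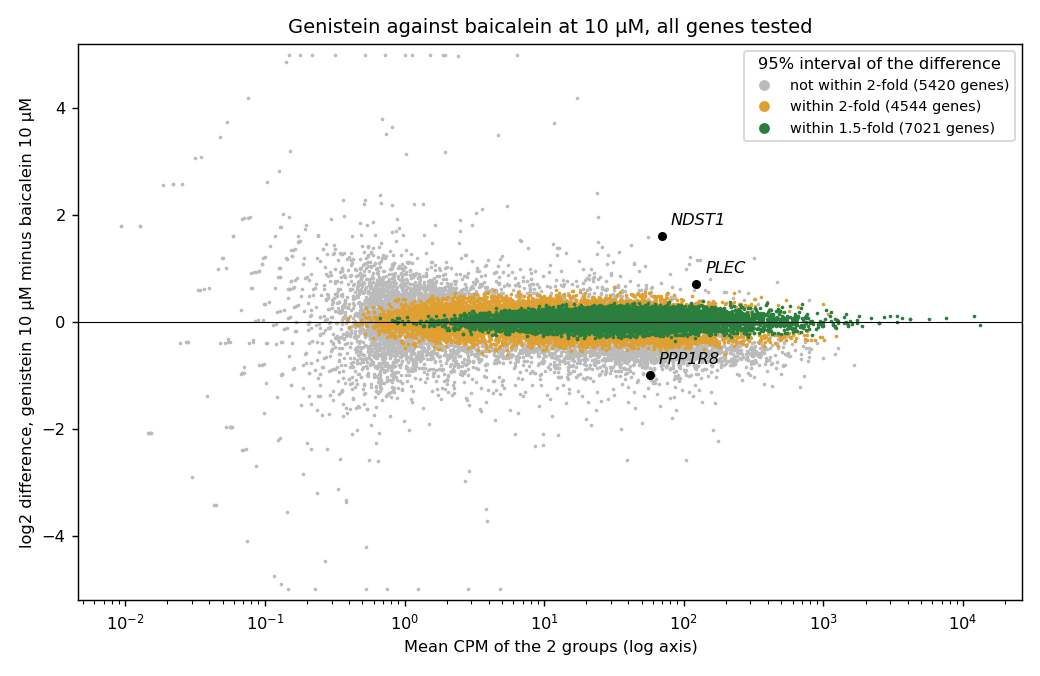
Each point is 1 gene, with its mean CPM over the 2 groups on a log axis and its log2 difference, genistein minus baicalein at 10 µM. Green points have a 95% interval within 1.5-fold (7021 genes), amber points within 2-fold only, and grey points within neither. Points beyond 5 on the log2 scale (18 genes) are drawn at that limit.

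NDST1 was the 1 gene called between the isomers. It encodes an N-deacetylase and N-sulfotransferase of the Golgi that starts the sulfation of heparan sulfate chains on cell surface proteoglycans, and lies on chromosome 5 at 150485818 to 150558211 of GRCh38, on the plus strand. It had 103, 105 and 106 CPM with genistein, 45.2, 25.9 and 32.1 CPM with baicalein and 45.7 ± 5.76 CPM in untreated cells (SD, n = 3). The genistein libraries lay within a few CPM of each other and above every baicalein library. NDST1 was 3.04-fold higher with genistein, a log2 difference of 1.61 ± 0.19 (SE; interval 1.20 to 2.01; adjusted p = 0.0268). Against untreated cells it rose with genistein, by 1.20 on the log2 scale (adjusted p = 0.0291), and it was not called with baicalein, at -0.41 (adjusted p = 0.445). At 20 µM the order was the opposite, with 23.7 CPM with genistein and 54.8 CPM with baicalein (log2 difference -1.21, adjusted p = 0.000209). Reads of the antisense transcript NDST1-AS1, which cannot be told apart without strand, came to 0.0174% of those of NDST1 in the 6 libraries. The call was lost when any 1 of the 3 genistein libraries or baicalein replicate 2 or 3 was left out (adjusted p 0.0781 to 0.162) and in a fit of the 6 libraries alone (1.57, adjusted p = 0.353). It was kept without baicalein replicate 1 (log2 difference 1.85, adjusted p = 0.00164) and with the trend on GC content and transcript length removed (1.44, adjusted p = 0.00266).

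The other genes of heparan sulfate synthesis and its core proteins showed no second call. The list held 33 tested genes, of which 1 was called higher, NDST1 itself, and 4, all with higher values, had an unadjusted p under 0.05, against 0.00589% and 4.87% of all genes. EXT1, a polymerase that extends the chain, had a log2 difference of 0.34 (adjusted p = 0.596), NDST2, the second sulfotransferase of the family, one of 0.12, and AGRN, the core protein agrin, one of 0.48 (0.17 to 0.79). The mean log2 CPM of the whole list was 0.09 higher with genistein, with a 95% interval of -0.04 to 0.22.

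The genes next in order of p missed the threshold and are given as values. PPP1R8, which encodes a nuclear inhibitor of protein phosphatase 1, had 37.4, 39.5 and 38.5 CPM with genistein, 56.2, 84.8 and 87.1 CPM with baicalein and 34.3 ± 1.69 CPM in untreated cells (SD, n = 3). All 3 baicalein libraries lay above all genistein libraries, replicate 1 least so. The log2 difference was -0.98 ± 0.14 (SE; adjusted p = 0.0707). Against untreated cells PPP1R8 rose with baicalein, 2.22-fold (adjusted p = 0.00309), and its log2 difference with genistein was 0.17 (adjusted p = 0.702). At 20 µM it had 35.2 CPM with genistein and 82.4 CPM with baicalein, so the order held at both doses (log2 difference at 20 µM -1.23, adjusted p = 1.37e-05). PPP1R8 was called between the drugs at 10 µM without baicalein replicate 1 (-1.16, adjusted p = 0.000277) and with the GC and length trend removed (-1.06, adjusted p = 0.0421).

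PLEC, the cytoskeletal linker plectin, had 153, 154 and 150 CPM with genistein, 97.8, 85.9 and 95.9 CPM with baicalein and 166 ± 7.65 CPM in untreated cells (SD, n = 3). The baicalein libraries were the low ones and overlapped neither other group. The log2 difference was 0.71 ± 0.11 (SE; adjusted p = 0.11), and 0.51 with the GC and length trend removed (adjusted p = 0.0421). PLEC was also higher with genistein at 20 µM, at 94.6 CPM against 54.8 CPM with baicalein (adjusted p = 6.8e-05).

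Below these, 10 further genes higher and 11 lower with genistein were taken by p among genes without overlap between libraries and with at least 5 CPM in the group where they were higher, and all had adjusted p between 0.433 and 0.543. PRKG2, MNS1, BBOF1 and SPTBN5 reached that level in 1 group only. Those higher with genistein were RREB1, a transcription factor downstream of Ras (log2 difference 0.53), KMT2D, a histone H3 lysine 4 methyltransferase (0.54), POLR1A, the largest subunit of RNA polymerase I (0.44), NUP62 of the nuclear pore (0.57), RRBP1 of the rough endoplasmic reticulum (0.55), ARHGEF11, a guanine nucleotide exchange factor (0.47), PCSK7, a proprotein convertase (0.43), C3orf62 (0.61), SPTBN5, a beta spectrin (0.83), and NPIPB5 (0.39). Several of these 21 values are uncertain. Reads were counted without a strand mark, and genes on the other strand held more counts than the gene itself for BBOF1 (ALDH6A1, 3630% of its counts), SPTBN5 (JMJD7-PLA2G4B, 241%), MNS1 (TEX9, 217%), NUP62 (ATF5, 108%) and RPP38 (NMT2, 105%). C3orf62 overlaps USP4 on its own strand, which held 440% of its counts, and NPIPB5 has near copies. Those lower with genistein were SEPHS1, a selenophosphate synthetase (-0.69), PRKG2, a cyclic GMP-dependent kinase (-1.64), MRPL35 of the mitochondrial ribosome (-0.74), GATAD2A of the NuRD complex (-0.54), CSRP1, a LIM domain protein (-0.82), VRK1, a nuclear kinase (-0.46), RPP38 of RNase P (-0.81), PPP2CA, a catalytic subunit of protein phosphatase 2A (-0.59), CEP112 (-0.65), BBOF1 (-0.62) and MNS1 (-1.27). With the GC and length trend removed GATAD2A was called (-0.69, adjusted p = 0.0421), and the differences of VRK1 (-0.19), MRPL35 (-0.48), BBOF1 (-0.40), KMT2D (0.33) and POLR1A (0.29) were smaller by over 1.5 times. Without genistein replicate 2 MRPL35 was called (-1.04, adjusted p = 0.0273).

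**Figure D3:**
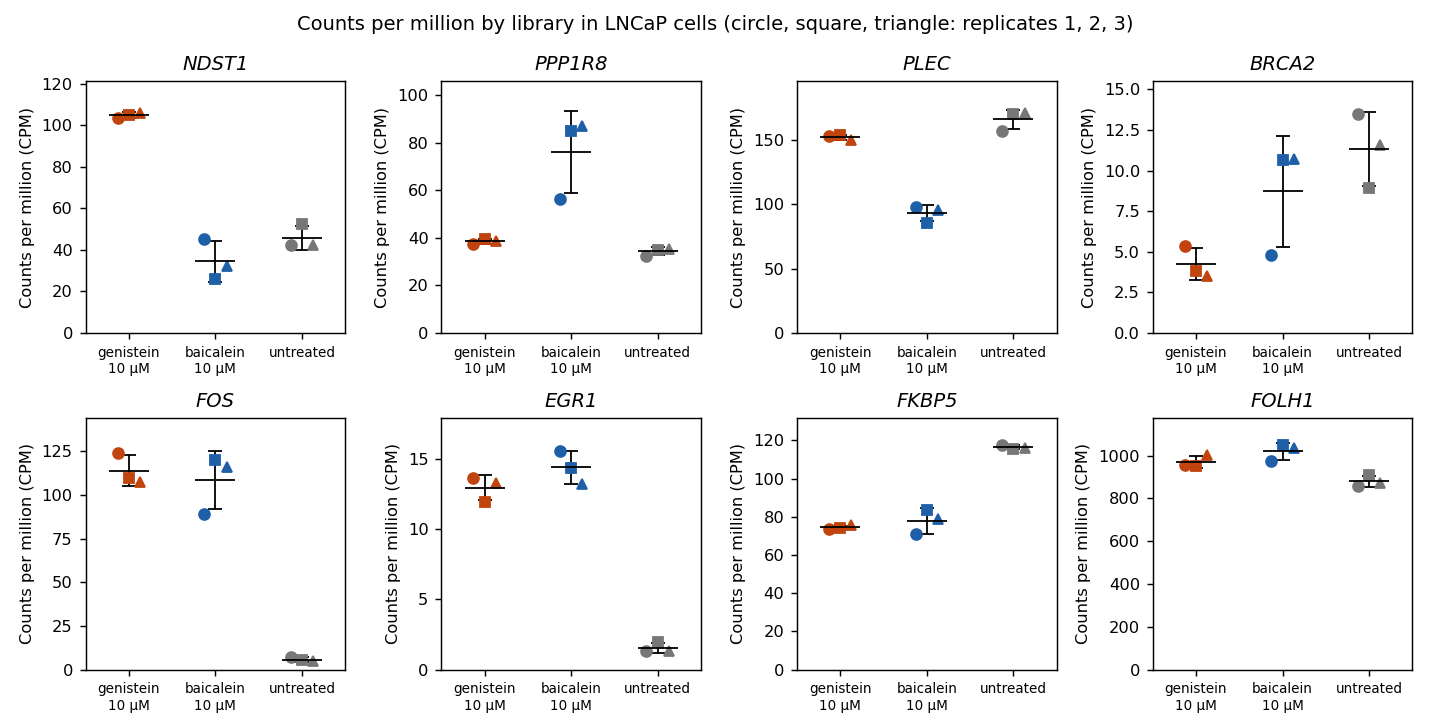
CPM in each library for 8 genes, with genistein at 10 µM, baicalein at 10 µM and untreated cells from left to right, and the mean ± SD of 3 libraries in black. NDST1, PPP1R8 and PLEC separate the drugs, BRCA2 overlaps through baicalein replicate 1, FOS, EGR1 and FKBP5 differ from untreated cells alike with both drugs, and FOLH1 lies between 952 and 1049 CPM in all 6 treated libraries.

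Few genes were called with each drug at 10 µM, which does not show the others to be unchanged. Against untreated cells, 19 genes were called with genistein (0.112%), 6 up (0.0353%) and 13 down (0.0765%), and 68 with baicalein (0.4%), 15 up (0.0883%) and 53 down (0.312%). DESeq2 called 129 genes with genistein and 400 with baicalein, and the fit with the GC and length trend removed called 57 and 167. Leaving out 1 library gave 10 to 16 calls with genistein, with 10 to 12 without genistein replicate 1, 2 or 3 or untreated replicate 3. It gave 22 to 58 with baicalein, with 22 to 35 without baicalein replicate 2 or 3 or any untreated library. These comparisons share their untreated libraries. Together they named 70 genes, 17 with both drugs, 2 with genistein only and 51 with baicalein only. For all 51, the estimate with genistein had the same sign as that with baicalein. The 3 promoters printed here belong to the genes that rose most with both drugs among those of at least 5 CPM in their highest group and are shown because they carry binding motifs of the factors that couple such genes to stimuli. Each is 250 bases before the start of the gene, on the plus strand, from RefSeq (GRCh38.p14). Capitals mark TGACG or its reverse complement, the core of the cyclic AMP response element, and the CArG box bound by serum response factor.
FOS, chr14:75278578-75278827: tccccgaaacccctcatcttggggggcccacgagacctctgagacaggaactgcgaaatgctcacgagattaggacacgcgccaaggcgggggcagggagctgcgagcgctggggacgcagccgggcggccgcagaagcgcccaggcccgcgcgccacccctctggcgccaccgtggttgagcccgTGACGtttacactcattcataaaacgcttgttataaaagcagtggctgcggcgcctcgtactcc
FOSB, chr19:45467746-45467995: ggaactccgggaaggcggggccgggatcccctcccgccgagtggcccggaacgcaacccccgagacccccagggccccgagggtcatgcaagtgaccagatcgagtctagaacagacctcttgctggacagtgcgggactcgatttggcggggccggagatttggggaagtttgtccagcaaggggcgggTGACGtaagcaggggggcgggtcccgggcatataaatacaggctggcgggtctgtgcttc
EGR1, chr5:138465229-138465478: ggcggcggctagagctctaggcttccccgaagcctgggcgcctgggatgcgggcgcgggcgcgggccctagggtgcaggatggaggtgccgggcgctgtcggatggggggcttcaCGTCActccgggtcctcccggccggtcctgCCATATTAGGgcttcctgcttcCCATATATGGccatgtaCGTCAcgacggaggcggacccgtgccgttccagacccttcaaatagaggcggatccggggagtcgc
The cyclic AMP core stood 64 bases before the start of FOS, 60 before FOSB, and 135 and 66 before EGR1. Both strands were searched, and 21.2% of 35116 RefSeq promoters of this length held the core. EGR1 also held 2 CArG boxes, 105 and 83 bases before its start, a motif present in 1.16% of promoters, and FOS and FOSB held 0 in this window. The motifs do not overlap each other. A match describes the letters only.

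FOS, a subunit of the transcription factor AP-1, had 124, 110 and 108 CPM with genistein, 89.3, 120 and 116 CPM with baicalein and 5.82 ± 1.33 CPM in untreated cells (SD, n = 3). The drug groups overlapped each other and stood far above untreated cells. FOS rose 19.5-fold with genistein (adjusted p = 2.69e-06) and 18.6-fold with baicalein (adjusted p = 3.2e-06), and the log2 difference between the drugs was 0.07, with an interval of -0.39 to 0.53. EGR1, a zinc finger factor, had 13.6, 11.9 and 13.3 CPM with genistein, 15.6, 14.4 and 13.2 CPM with baicalein and 1.54 ± 0.36 CPM in untreated cells. It rose 8.43-fold with genistein and 9.37-fold with baicalein, with a difference between the drugs of -0.15 (-0.45 to 0.14). Both intervals lay within 1.5-fold. With the GC and length trend removed, that of FOS was -0.62 to 0.56 and passed the 1.5-fold margin, and that of EGR1 was -0.51 to -0.03, inside the margin and excluding 0. FOSB, a relative of FOS, averaged 4.96 ± 0.79 CPM with genistein, 5.66 ± 1.80 CPM with baicalein and 0.287 ± 0.080 CPM in untreated cells (SD, n = 3 each), and its difference between the drugs, -0.19 (-0.73 to 0.36), was shown within 2-fold only. FOSB overlaps the more abundant ERCC1 on the other strand, so its counts are uncertain. CCN1, a secreted matrix protein, averaged 22.2 CPM with genistein, 20.5 CPM with baicalein and 10.2 CPM in untreated cells, with a difference of 0.11 (-0.15 to 0.38). TRIB1, a pseudokinase, had a difference of 0.22 (0.00 to 0.44).

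At 20 µM the same genes parted. EGR1 had 5.06 CPM with genistein and 203 CPM with baicalein (log2 difference -5.32), FOS had 23.6 CPM with genistein and 103 CPM with baicalein (-2.13), and JUN, the partner of FOS, had 65.3 CPM with genistein and 534 CPM with baicalein (-3.03). Of the 21 immediate early genes tested, 0 were called between the drugs at 10 µM, where 0.00589% of all genes were called. At that dose 14 had an interval within 2-fold, or 66.7%, against 68.1% of all genes. At 20 µM 21 were called, 20 of them lower with genistein, where 48.7% of all genes were called and 23.3% were lower. Over the list the mean log2 difference at 10 µM was 0.09 (-0.04 to 0.23). JUN itself was not resolved at 10 µM, with 77.5, 85.6 and 87.2 CPM with genistein, 88.9, 68.6 and 76.5 CPM with baicalein and an interval of -1.33 to 1.52.

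Several androgen-induced genes fell with both drugs. FKBP5, a co-chaperone of steroid receptors, had 73.8, 74.0 and 75.5 CPM with genistein, 70.8, 83.8 and 79.0 CPM with baicalein and 116 ± 1.08 CPM in untreated cells (SD, n = 3). Both drug groups lay below untreated cells, and they overlapped each other. The difference between the drugs was -0.06, with an interval of -0.28 to 0.16. GREB1, a hormone-induced cofactor, averaged 25.5 CPM with genistein, 20.4 CPM with baicalein and 53.3 CPM in untreated cells (0.32, 0.03 to 0.61; adjusted p = 0.638). ADAM7, a metalloprotease-like protein, averaged 10.0 CPM with genistein, 9.83 CPM with baicalein and 23.4 CPM in untreated cells (0.03, -0.33 to 0.39).

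Of 28 androgen-induced genes tested, 4 fell with genistein and 9 fell with baicalein against untreated cells, where 0.0765% and 0.312% of all genes fell. The 5 called with baicalein alone were KLK2, KLK4, TMPRSS2, SLC45A3 and PMEPA1. None of the 5 was called between the drugs. TMPRSS2, a membrane protease, had 217, 246 and 251 CPM with genistein, 219, 191 and 179 CPM with baicalein and 324 CPM on average in untreated cells, and the drug groups overlapped. Its interval of 0.03 to 0.52 lay within 1.5-fold, as did those of KLK2 (-0.04 to 0.49), KLK4 (0.08 to 0.58) and SLC45A3 (-0.05 to 0.53). PMEPA1, an inhibitor of TGF-beta signalling, had an interval of 0.08 to 0.60 and was shown within 2-fold. KLK3, which encodes prostate-specific antigen, averaged 1128 CPM with genistein, 1011 CPM with baicalein and 1497 CPM in untreated cells (0.16, -0.28 to 0.59). Over the 28 genes the mean difference was 0.11 (-0.09 to 0.30), and it was -0.01 (-0.17 to 0.15) without baicalein replicate 1.

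Genes that androgen represses had higher values with baicalein than with genistein, none of them called between the drugs. Against untreated cells, 2 of 8 were called higher with baicalein and 0 with genistein, where 0.0883% and 0.0353% of all genes rose. The 2 were UGT2B15, from 58.8 CPM in untreated cells (log2 difference 0.73, adjusted p = 0.00522), and UGT2B17, from 137 CPM (0.54, adjusted p = 0.0155). With genistein their estimates against untreated cells were also positive, at 0.38 for UGT2B15 (adjusted p = 0.28) and 0.38 for UGT2B17 (adjusted p = 0.198). All 8 tested members had lower estimates with genistein, 2 of them at an unadjusted p under 0.05 (2.85% of all genes) and 0 called, and the mean difference was -0.25 (-0.50 to -0.01). UGT2B15, which glucuronidates androgens, had 74.1, 76.0 and 79.2 CPM with genistein and 86.8, 107 and 98.6 CPM with baicalein (-0.35, -0.56 to -0.14; adjusted p = 0.543). UGT2B17, its close relative, averaged 178 CPM with genistein and 199 CPM with baicalein (-0.16, -0.34 to 0.03), and reads of the UGT2B family may be split between copies. DDC, dopa decarboxylase, averaged 459 CPM with genistein and 538 CPM with baicalein (-0.23, -0.42 to -0.03). The median GC content of the 8 genes was 39.5%, against 48% over all genes tested. With the GC and length trend removed the mean difference was -0.09 (-0.26 to 0.09), the difference of UGT2B15 was -0.04, and that of UGT2B17 turned to 0.16 (-0.20 to 0.51).

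Other genes lowered by both drugs also had close values. UHRF1, which maintains DNA methylation, averaged 6.03 ± 1.24 CPM with genistein, 5.76 ± 0.99 CPM with baicalein and 17.3 ± 1.46 CPM in untreated cells (SD, n = 3 each), and the difference between the drugs was 0.07 (-0.43 to 0.58). WWTR1, the Hippo pathway co-activator TAZ, averaged 3.78 CPM with genistein, 3.75 CPM with baicalein and 8.79 CPM in untreated cells (0.02, -0.40 to 0.44). OTULINL averaged 19.7 CPM with genistein, 19.0 CPM with baicalein and 42.4 CPM in untreated cells (0.05, -0.20 to 0.31). CHRNA2, a nicotinic receptor subunit, averaged 2.93 CPM with genistein, 2.48 CPM with baicalein and 11.4 CPM in untreated cells (0.23, -0.45 to 0.91). Its interval lay within 2-fold only. TRIM49D1 and TRIM49D2 are near-identical copies and count as 1 observation.

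Of the 17 genes called with both drugs, 16 had an interval between the drugs within 2-fold and 12 within 1.5-fold. CCDC141, almost without counts in the treated libraries, had none. Of the 51 called with baicalein only, 44 were within 2-fold and 29 within 1.5-fold, and 0 were called between the drugs. Over all genes tested, 68.1% were within 2-fold, 41.3% within 1.5-fold and 0.00589% called. Of the 51, 31 had an unadjusted p under 0.05 between the drugs, and 33 had no overlap between the drug groups. Of the 17, these counts were 2 and 5, and over all genes the shares were 7.72% and 13.2%. These genes were chosen by comparisons that use the same libraries, so the counts describe them and no test was made. The 7 of these 51 not within 2-fold were PPP1R8, PLD1, SPTBN5, TMEM121B, ZNF713, BRME1 and the noncoding TMEM11-DT.

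**Figure D4:**
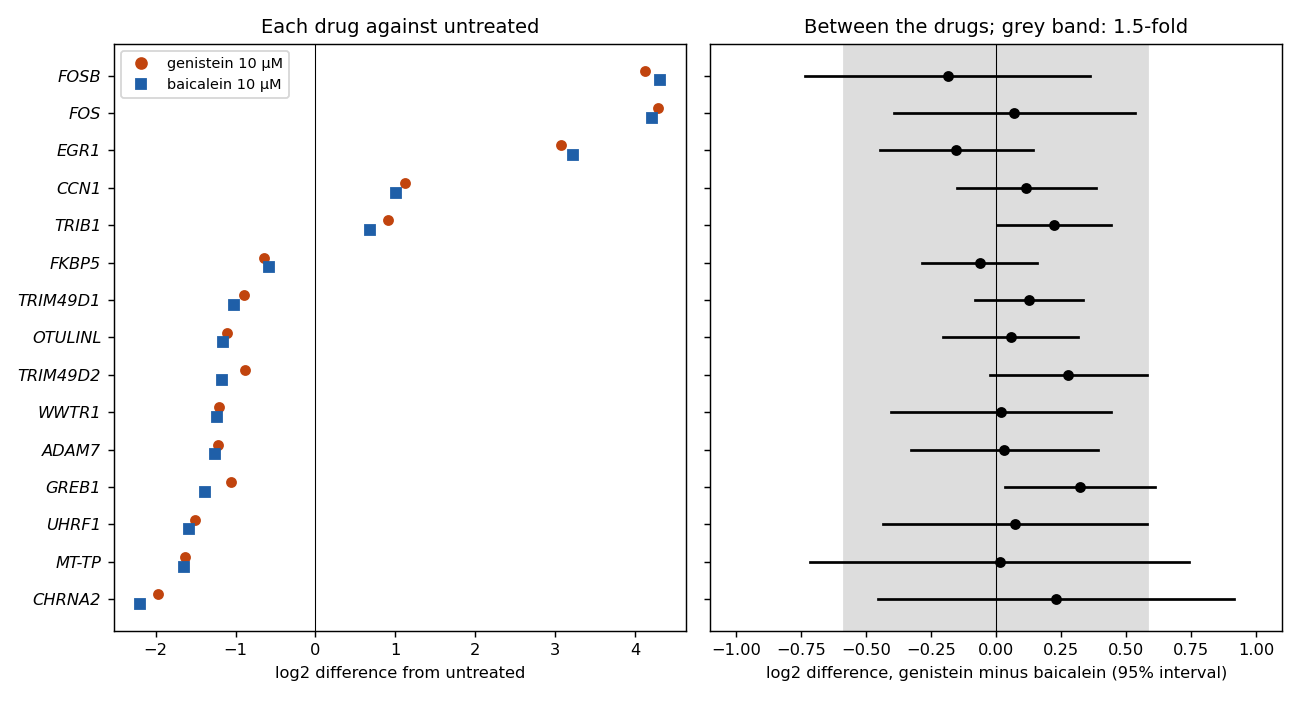
The left panel plots the log2 difference from untreated cells with genistein at 10 µM (circles) and baicalein at 10 µM (squares) for 15 genes called with both drugs. The right panel plots the difference between the drugs with its 95% interval, and the grey band marks 1.5-fold. FOS, EGR1 and FKBP5 lie inside the band, and FOSB, CHRNA2, GREB1 and the mitochondrial transfer RNA gene MT-TP reach outside it.

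To ask which pathways were shown equal, 36 gene lists were read by the mean log2 CPM of their tested members in each library. A list was called equal when the whole interval of the difference in that mean lay within 0.32 either way on the log2 scale, a margin narrower than those for single genes. By this margin 29 lists were equal, and 35 lay within 1.5-fold. With intervals widened for 36 lists, 15 were equal, and these 15 were equal under every alternative tried. Equality of a list concerns its mean, and single members can differ, also in opposite directions. In the MAPK feedback list, equal at -0.04, 7 of 14 genes (50%) had an interval within 2-fold, against 68.1% of all genes. Of the 14, 4 had an unadjusted p under 0.05, all higher with genistein, and 8 had negative estimates. In the unfolded protein response list 21 of 22 lay within 2-fold. The androgen-induced genes were among the 29, but in 9 of 15 settings only. Their interval passed the margin with the 6 libraries alone (-0.23 to 0.36), with widened intervals, and without genistein replicate 2 (upper bound 0.36) or 3 (0.33) or baicalein replicate 2 (0.37) or 3 (0.39). The androgen-repressed genes were not unless the GC and length trend was removed. Among the 29, the unfolded protein response of the endoplasmic reticulum was at 0.00 (-0.09 to 0.08) over 22 genes. Its chaperone HSPA5 had 438, 454 and 471 CPM with genistein and 407, 403 and 356 CPM with baicalein. Cholesterol synthesis and uptake stood at 0.00 (-0.10 to 0.11) over 24 genes. SREBF2, the transcription factor that drives these genes, had 293.1, 315.6 and 328.5 CPM with genistein and 294.5, 240.8 and 246.5 CPM with baicalein (0.26, -0.01 to 0.54). HMGCS1, an early enzyme of the pathway, had 308, 456 and 142 CPM with baicalein and 154.5, 486.3 and 493.6 CPM in untreated cells. Its interval, from a spread fitted over all 15 LNCaP libraries, ran from -1.01 to 1.67. Antioxidant targets of NRF2 were at -0.04 (-0.13 to 0.05), with NQO1, a quinone reductase, at 183, 184 and 195 CPM with genistein and 191, 214 and 196 CPM with baicalein.

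Targets of p53 were at -0.09 (-0.21 to 0.03). CDKN1A, which encodes the cell cycle inhibitor p21, had 207, 229 and 229 CPM with genistein and 236, 205 and 184 CPM with baicalein (0.09, -0.42 to 0.60). MDM2, which degrades p53, had 158, 118 and 126 CPM with genistein and 115, 186 and 198 CPM with baicalein, with baicalein replicate 1 below all genistein libraries (-0.31, -0.89 to 0.26). Genes of end joining, excision repair, mismatch repair and checkpoints were at -0.04 (-0.13 to 0.05) over 41 genes. XRCC6, the Ku70 subunit that binds broken ends, had an interval of -0.16 to 0.35, and XRCC5, its Ku80 partner, one of -0.37 to 0.15. Replication genes were at 0.09 (-0.01 to 0.20) over 40 genes, with MCM2 of the replicative helicase at 0.51 (0.14 to 0.88; adjusted p = 0.638).

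All 66 cytosolic ribosomal protein genes had intervals within 2-fold, and 62 within 1.5-fold, for a mean of -0.04 (-0.21 to 0.13). The shares were 68.1% and 41.3% over all genes, and 76.8% and 59.4% over genes of at least 100 CPM. Heat shock proteins were at -0.03 (-0.12 to 0.06), proteasome subunits at -0.03 (-0.13 to 0.07) and integrated stress response genes at 0.05 (-0.07 to 0.17). The 6 metallothionein list genes tested were equal by this margin with an interval that excluded 0, at -0.14 (-0.24 to -0.05), so being inside the margin does not mean identity. MT2A, a zinc-binding metallothionein, had 189, 221 and 223 CPM with genistein and 263, 244 and 223 CPM with baicalein (-0.21, -0.46 to 0.05).

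**Figure D5:**
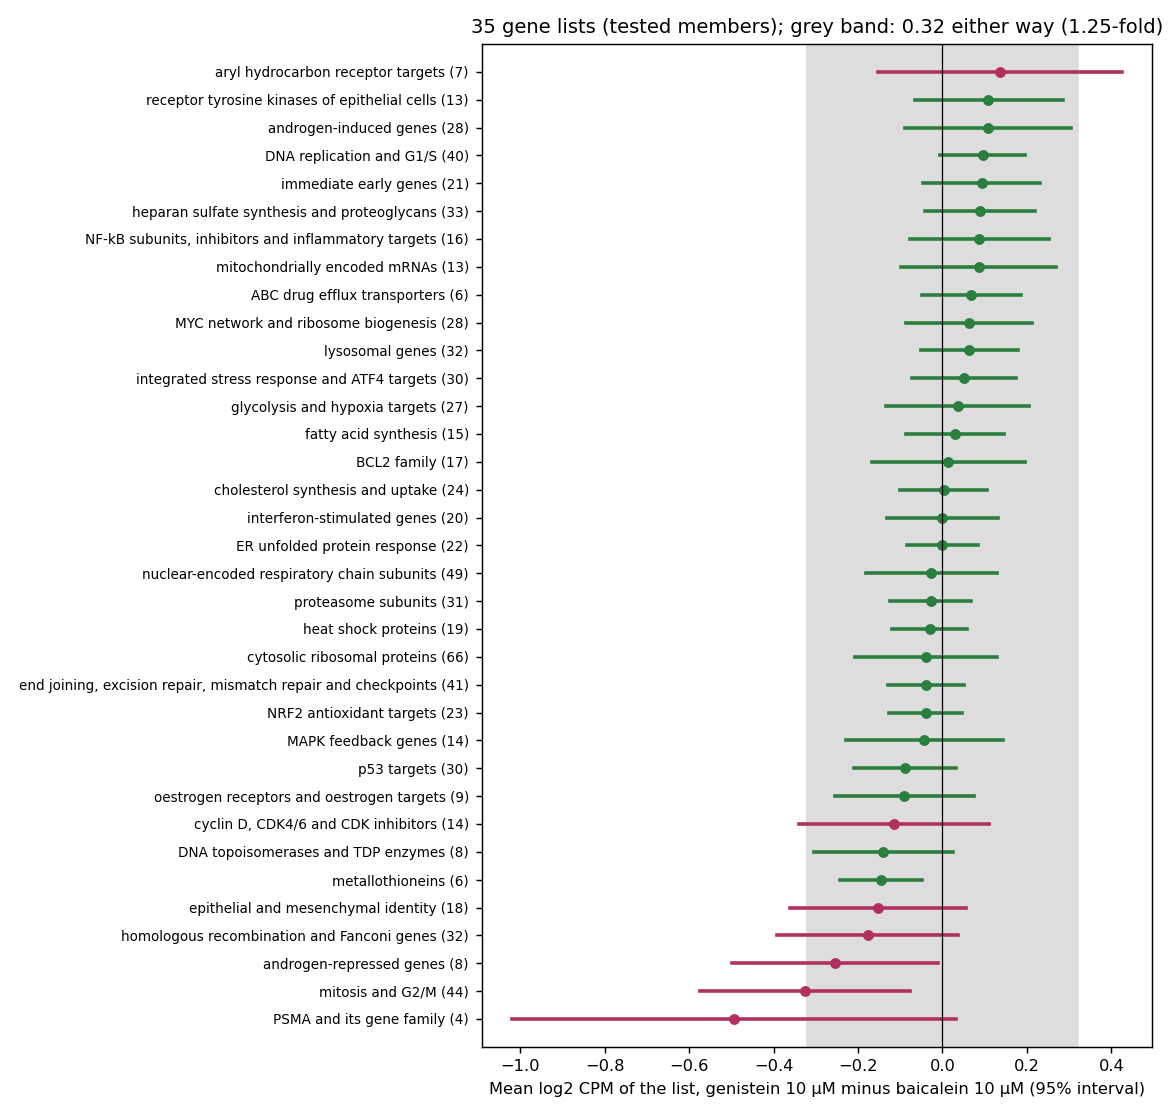
Each row is 1 of 35 gene lists with its number of tested members, and the point and line give the difference in mean log2 CPM, genistein minus baicalein at 10 µM, with its 95% interval. Green lists lie wholly inside the grey band of 0.32 either way (28 lists), and red lists reach outside it (7 lists), mitosis and the PSMA family farthest.

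Mitotic genes were the largest group not shown equal. Of 44 tested, 0 were called, while 13 had an unadjusted p under 0.05, all lower with genistein, against 2.85% of all genes in that direction. The mean log2 CPM of the list was 4.12, 4.03 and 4.02 with genistein, 4.14, 4.41 and 4.59 with baicalein and 4.50, 4.43 and 4.41 in untreated cells. Baicalein replicate 1 thus lay with the genistein libraries, and baicalein replicates 2 and 3 near or above untreated cells. The mean difference was -0.33 (-0.58 to -0.08), -0.45 (-0.69 to -0.21) without baicalein replicate 1, and -0.21 (-0.33 to -0.10) with the GC and length trend removed. The median GC content of the list was 42.4%. It was equal by the margin under none of the 15 settings tried.

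ASPM, a spindle pole protein, had 5.52, 5.06 and 4.58 CPM with genistein, 6.55, 11.3 and 16.3 CPM with baicalein and 12.9 ± 2.98 CPM in untreated cells (SD, n = 3), with no overlap between the drugs. The log2 difference was -1.17 ± 0.35 (SE; adjusted p = 0.596). CENPF, a kinetochore protein, had 13.6, 13.9 and 14.3 CPM with genistein and 17.7, 18.5 and 27.5 CPM with baicalein (-0.61, -1.01 to -0.21; adjusted p = 0.596). TOP2A, the topoisomerase II of dividing cells, had 38.9, 29.9 and 31.3 CPM with genistein and 36.4, 55.0 and 68.4 CPM with baicalein, and the groups overlapped through baicalein replicate 1 (-0.68, -1.36 to 0.01). Several mitotic regulators had differences near 0, among them AURKB at -0.02, PLK1 at 0.07 and UBE2C at -0.03. CDK1, the kinase that drives mitosis, had 122, 98.7 and 92.6 CPM with genistein and 105, 178 and 224 CPM with baicalein (-0.69, -1.42 to 0.03). With the GC and length trend removed the differences were -0.79 for ASPM, -0.44 for CENPF, -0.39 for TOP2A and -0.26 for CDK1. At 20 µM the order of this list was the opposite, with 32 of 44 called, all higher with genistein, against 25.4% of all genes.

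Homologous recombination and Fanconi genes stood at -0.18 (-0.39 to 0.04) over 32 genes, with 0 called. BRCA2, a core recombination protein, had 5.37, 3.82 and 3.52 CPM with genistein, 4.78, 10.7 and 10.7 CPM with baicalein and 11.3 ± 2.27 CPM in untreated cells (SD, n = 3). Its baicalein replicate 1 fell among the genistein libraries, and the log2 difference was -1.05 (-1.74 to -0.35; adjusted p = 0.603), or -0.66 with the GC and length trend removed. BARD1, the partner of BRCA1, had 310, 234 and 213 CPM with genistein and 212, 439 and 507 CPM with baicalein (-0.61, -1.46 to 0.24, and -0.25 with that trend removed). XRCC3, another recombination gene, was at 0.33 (0.04 to 0.61), but KLC1 on the other strand held 534% of its counts, so its value is uncertain. With the GC and length trend removed the list was at -0.05 (-0.15 to 0.05), inside the margin, and without baicalein replicate 1 it was at -0.26 (-0.48 to -0.05). The part of the GC and length trend and of that library in these differences was not tested beyond these values.

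FOLH1, the target of the radioligand, was 1 of the 1424 genes (8.38%) whose interval lay within 0.32 either way. It had 957, 952 and 1002 CPM with genistein, 976, 1049 and 1037 CPM with baicalein and 879 ± 25.6 CPM in untreated cells (SD, n = 3), and the drug groups overlapped. The log2 difference was -0.07 ± 0.08 (SE), with an interval of -0.25 to 0.10. FOLH1 has a near copy, FOLH1B, and the counts could be split between them. The short list of FOLH1 and its relatives was the only one of the 36 not shown within 1.5-fold, at -0.49 (-1.02 to 0.03) over 4 genes. That width came with TFRC, the transferrin receptor, at 278, 659 and 651 CPM with genistein and 636, 886 and 1054 CPM with baicalein, and with NAALADL2, a gene of the same protease family, at 161, 121 and 106 CPM with genistein and 120, 240 and 266 CPM with baicalein. At 20 µM FOLH1 had 953 CPM with genistein and 331 CPM with baicalein (1.53, adjusted p = 3.56e-08).

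The remaining lists outside the margin were aryl hydrocarbon receptor targets at 0.14 (-0.15 to 0.42), epithelial and mesenchymal identity at -0.15 (-0.36 to 0.06), and cyclin D with its kinases and inhibitors at -0.11 (-0.34 to 0.11), all within 1.5-fold and with 0 genes called. CYP1A1, the cytochrome that aryl hydrocarbon receptor ligands induce, had 3.53, 4.16 and 3.13 CPM with genistein and 2.21, 3.21 and 2.57 CPM with baicalein, overlapping, with an interval of -0.16 to 1.04. Neither equality nor a difference was shown for it.

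Across all genes, the difference between the drugs followed GC content. Genes were put in 5 classes of nearly equal size by GC content. In the class lowest in GC, the median log2 difference was -0.36, and 277 genes were lower and 18 higher with genistein at an unadjusted p under 0.05. In the highest class the median was 0.13, with 14 lower and 269 higher. Against untreated cells the median in the lowest class was -0.28 with genistein and 0.101 with baicalein. In the highest class it was 0.075 with genistein and -0.053 with baicalein. The balance by GC content also varied between libraries of 1 group, and the cause of the trend was not tested. With the trend on GC content and length removed together, 4 genes were called, NDST1, PLEC, PPP1R8 and GATAD2A, and the share with an interval within 1.5-fold was 50.6%. Of 96 genes taken by the naming rule, 9 changed sign, all uncalled: FKBP5, FOS, DUSP1, CDKN1A, HMOX1, UHRF1, UGT2B17, JUN and HSP90B1. The interval left the 1.5-fold margin for 4 of the 96, FOS, ADAM7, WWTR1 and CANX, came inside it for 24, and lay inside it both ways for 30. The median differences of the other classes were -0.07, 0.07 and 0.10 in order of rising GC.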

How the data were processed

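Poly(A) RNA was sequenced in libraries of a kit that does not mark strand, per the labels' protocols. The authors deposited 1 table of whole-number counts per gene, and the submitters' processing notes list DESeq2 1.20.0, featureCounts 1.6.4, STAR 2.7.6a, fastp and the build GRCh38, without roles. Strand setting, multimapping and annotation release are not given in the sources used here. The 18 FPKM columns were not used, since no header among them names baicalein at 10 µM, and the authors' comparisons, coded without a key, were not used.

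From the counts, 15 LNCaP libraries entered 1 fit in edgeR 4.0.16 (R 4.3.3; TMM, default low-count filter, robust quasi-likelihood F test, Benjamini-Hochberg over 16985 genes, 10 residual degrees of freedom, biological coefficient of variation 0.235). Intervals are 95% intervals of the unshrunken log2 difference, and 107 genes have none. List means are log2 CPM with a prior count of 2, fitted in limma 3.58.1, with no p. Margins were 2-fold and 1.5-fold for genes and 0.32 on the log2 scale for lists. One pair of compounds was compared, at 2 matched doses. No replicate pair agreed within sampling noise, and counting error was not modelled apart from the spread. GENCODE 29 gave GC content and length for 95% of genes, and coordinates are those deposited.

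The members, the 36 lists (888 entries, 822 tested) and the tests were chosen with earlier results of these data known. Named genes were 30 of interest, those called, the 12 highest and 12 lowest by p without overlap and with at least 5 CPM, 4 per described list, and the 10 largest changes from untreated; a few of these are not reported here. Alternatives were DESeq2 1.42.0, other size factors, no low-count filter, the 6 libraries alone, a replicate block, no mitochondrial genes, each library left out, limma-voom, a prior count of 0.5, widened intervals, and, chosen after seeing the data, removal of the GC and length trend. The test was checked on simulated counts, drawn independently for each gene and without a GC trend or an outlying library, so the check does not cover those features.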

Additional observations from a re-analysis of the deposited data

Results flagged for a closer look

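The difference between the isomers changed with dose for 61 of the 96 genes named here, by edgeR's interaction term (adjusted p under 0.05), against 32.8% of all genes tested. Some of the 96 were chosen by their difference at 10 µM, which this term subtracts, so nothing is read from that share or from its direction for them. Values are the log2 difference, genistein minus baicalein, at 20 µM less that at 10 µM. It was positive for 37 genes and negative for 24.

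Positive values were found for androgen-induced genes, with KLK3 at 1.89, KLK2 at 1.78, KLK4 at 0.82, TMPRSS2 at 1.43, FKBP5 at 1.30, GREB1 at 1.16, PMEPA1 at 1.17 and ADAM7 at 2.75. Genes that androgen represses were positive as well, with UGT2B15 at 3.31, UGT2B17 at 2.95 and DDC at 1.24. The PSMA family gave FOLH1 at 1.60, NAALADL2 at 2.34 and NAALAD2 at 1.93. Mitosis and replication genes gave TOP2A at 2.44, TOP2B at 0.93, CENPF at 2.65, ASPM at 2.04, CDK1 at 2.39, MCM2 at 1.13 and UHRF1 at 1.73. Repair genes gave BRCA2 at 1.34, BARD1 at 2.81, XRCC3 at 0.98, XRCC5 at 1.12 and POLQ at 1.72. The others were CHRNA2 at 3.06, WWTR1 at 2.10, POLR1A at 0.66, PRKG2 at 2.29, MRPL35 at 1.33, CSRP1 at 0.92, BBOF1 at 0.64, VRK1 at 0.80, MNS1 at 1.89, FAM20B at 0.80 and GSR at 0.84.

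Negative values were found for immediate early genes, with FOS at -2.20, FOSB at -2.02, FOSL2 at -1.63, EGR1 at -5.17, JUN at -3.13, JUND at -1.22, KLF2 at -2.97, CCN1 at -2.64 and DUSP1 at -1.31. Stress and metal genes gave CDKN1A at -2.12, HMOX1 at -1.39, CYP1A1 at -1.71, HSPA5 at -0.53, MTF1 at -1.16, MT1F at -0.86, MT2A at -0.93 and SLC30A1 at -2.85. Stress lists as a whole went both ways. Of 23 antioxidant targets of NRF2 tested, 4 were called positive and 3 negative. Of 30 integrated stress response genes, 8 were positive and 8 negative. The shares of all genes were 17.3% and 15.5%. The others were NDST1 at -2.82, RREB1 at -0.66, C3orf62 at -1.54, SPTBN5 at -1.92, NPIPB5 at -1.01, KMT2D at -0.85 and MAK at -1.68. Overlapping genes held more counts than BBOF1, C3orf62, FOSB, MAK, MNS1, POLQ, SPTBN5 and XRCC3 did, so their values are uncertain.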

How the results depend on the processing

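The single call between the isomers at 10 µM became 0 with the 6 libraries alone and with a replicate block, 4 with the GC and length trend removed and 72 with DESeq2, and 0 to 3 when 1 library was left out. For NDST1 the log2 difference stayed between 1.44 and 1.85, with adjusted p from 4.44e-12 (DESeq2) to 0.353 (6 libraries). Calls of genistein against untreated (19) became 11 with the block, 57 with the trend removed, 129 with DESeq2 and 10 to 16 without 1 library. Calls of baicalein against untreated (68) became 29, 167 and 400 under the same 3 settings and 22 to 58 without 1 library. The 29 lists equal within 0.32 on the log2 scale became 15 with widened intervals, and 26 to 30 under the other settings. No named gene was called in the opposite direction. The cause of these moves was not tested. Leaving out the mitochondrial genes empties that list, which then has no value. Same-numbered deviations of the 10 µM libraries correlated at -0.30, -0.04 and -0.16, and the replicate block is given here only. These correlations were taken before removal of the GC and length trend, so they do not exclude a pairing. With the block added and that trend removed, NDST1 alone was called (1.45, adjusted p = 0.0123). PLEC (adjusted p = 0.15) and PPP1R8 (adjusted p = 0.137) were not called in that setting. With the block, 11373 genes had an interval within 2-fold and 6674 within 1.5-fold, against 11565 and 7021 without it. Precision was limited for genes under 1 CPM.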

Other observations

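The receptor tyrosine kinases of epithelial cells, which genistein is known to inhibit as enzymes, were equal between the isomers as a list of transcripts, at 0.11 (-0.07 to 0.29) over 13 genes. The interval passed the margin with widened intervals and without genistein replicate 1 (upper bound 0.36) or baicalein replicate 1 (0.34). EGFR, singled out after its values were seen, had 9.28, 25.4 and 9.94 CPM with genistein and 7.62, 5.72 and 8.08 CPM with baicalein. Genistein replicate 2 stood above the other libraries, and the difference was not called (1.07, 0.33 to 1.80; adjusted p = 0.628). ERBB2, the HER2 receptor, had an interval of -0.19 to 0.41, and IGF1R, the receptor of insulin-like growth factors, one of -0.04 to 0.53, both within 1.5-fold.

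Feedback genes of the MAPK pathway stood at -0.04 (-0.23 to 0.14) over 14 genes. SPRY4, an inhibitor of the pathway singled out likewise, had 41.5, 42.4 and 47.2 CPM with genistein and 36.8, 30.8 and 35.5 CPM with baicalein (0.35, 0.07 to 0.63; adjusted p = 0.638). DDIT3, the stress-induced factor CHOP, was also singled out and had 75.7, 72.5 and 83.6 CPM with genistein and 85.5, 70.3 and 69.4 CPM with baicalein (0.04, -0.26 to 0.34), and at 20 µM 218 CPM with genistein and 802 CPM with baicalein (-1.88, adjusted p = 5.33e-07). FASN, the fatty acid synthase, singled out likewise, had 708, 715 and 737 CPM with genistein and 681, 506 and 582 CPM with baicalein (0.29, -0.02 to 0.60), with no overlap between the drugs, and at 20 µM 1255 CPM with genistein and 564 CPM with baicalein (1.15, adjusted p = 3.15e-05).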
